A study of Mus musculus with 29 samples.

Results

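The comparison set 21 arrays of C2C12 cells that had received a microRNA mimic against 6 arrays of cells that had received a control oligonucleotide, out of 29 arrays in all. C2C12 is a mouse myoblast line whose cells divide in rich medium and fuse into myotubes when serum is withdrawn. The mimics were of miR-1, Let-7b, miR-22, miR-145, miR-29a, miR-365 and miR-34a, with 3 arrays each, and every microRNA had the same weight in the pooled value. The control was AllStar, a commercial negative control oligonucleotide, with 3 transfections and a technical repeat array of each, averaged to 3 control values. Mimics and control were given at 50 nM to dividing cells at passage 27, and RNA was taken after 36 h. All of these cells had gone through the same transfection reagent, and no genotype differed between groups. The remaining arrays were 1 of untransfected dividing myoblasts at 70% confluence and 1 of untransfected myotubes, and neither had a replicate. The labels' protocol has the experiment done 3 times but does not say that a replicate number marks one of these repeats, and the p values measure the spread between these samples of 1 cell line. The question here was which genes stood apart from the control in the same direction under every microRNA, and where the untransfected myoblasts stood for those genes.

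A microRNA is a short RNA that guides an Argonaute protein to messenger RNAs, mainly through pairing of its seed near the 5′ end, and the bound messages are deadenylated, decapped and degraded or translated less. MicroRNAs with different seeds bind largely different messages. Of the microRNAs used here, miR-1 is known to promote muscle differentiation, miR-34a is induced by p53, and let-7 represses growth and cell cycle genes. The mature forms that RefSeq lists for 5 of the 7 are given next in the build GRCm38.p6, to show how little sequence they share. The seed, bases 2 to 8, is in capitals.

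miR-34a (chr4:150068473-150068494, + strand): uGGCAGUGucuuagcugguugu
miR-22 (chr11:75463772-75463793, + strand): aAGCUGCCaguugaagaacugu
miR-365 (chr11:79726467-79726488, + strand): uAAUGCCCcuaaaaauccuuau
miR-29a (chr6:31062673-31062694, - strand): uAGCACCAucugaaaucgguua
Let-7b (chr15:85707325-85707346, + strand): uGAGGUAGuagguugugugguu

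Among these 5, 0 of 10 pairs shared the seed, and 0 of 10 pairs shared a stretch of 6 seed bases. The labels name the microRNAs but give neither the arm nor the sequence of the mimics that were transfected. Sequences of miR-1 and miR-145 are not shown here.

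Values are deposited log2 intensities, and a difference of 1 is a doubling. The muscle lineage of the labelled cells was borne out by markers, since Des, the muscle intermediate filament desmin, lay between 13.12 and 13.21 in the control and between 12.85 and 13.46 in the 21 mimic arrays. The mean log2 level of 16 measured markers of adipocytes, osteoblasts, immune, endothelial and epithelial cells and neurons lay between 6.39 and 6.46 in the control and between 6.34 and 6.60 in the mimic arrays, close to the median of 6.65 of probe sets with no listed gene. Of these markers 0 of 16 passed the pooled test, also at an unadjusted p of 0.05. The highest single value among them was 10.80, for the keratin Krt8 under a mimic. The mean of 6 myoblast markers lay between 11.49 and 11.69 in the control and between 11.30 and 11.74 in the mimic arrays. It was 11.52 in the myoblast and 11.65 in the myotube array, so it does not tell dividing from differentiated cells. A few arrays stood apart from the rest. The median correlation of an array with the other mimic and control arrays was lowest for the third miR-1 array (0.9822) and the third miR-145 array (0.9839) and lay between 0.9880 and 0.9936 for the others. In the third miR-145 array the mean log2 level of 37 interferon response genes was 10.39, against 8.0 and 7.88 in the other arrays of that mimic and at most 7.63 under the other 6.

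Each gene was tested in limma with the mean of the 7 microRNA means against the control mean, with Benjamini-Hochberg adjustment over the 19938 genes measured. At an adjusted p of 0.05, 1083 genes were higher under the mimics, which is 5.43% of all, and 909 were lower, which is 4.56%. Most of these differences were small, since 80 of the higher and 33 of the lower genes reached 1.5-fold. The 7 microRNAs all differed from the control in the same direction for 566 of the higher and 431 of the lower genes. Counts for gene lists below use the pooled calls, which do not ask for this. With the replicate number as a block, which the values bear out as a pairing, 1738 genes were higher and 1395 lower. After subtraction of each array's median, 42.5% of the called genes were higher, against 54.4% in the values as deposited.

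A narrower group is the genes whose 21 mimic values all lay beyond all 3 control values. There were 95 such genes on the higher side, 0.476% of all genes, and 65 on the lower side, 0.326%. These sets moved with the scaling, to 60 and 118 after subtraction of array medians, so that 33.7% rather than 59.4% were on the higher side. Their median pooled difference was 0.46 on the higher side, with sizes from 0.19 to 1.20, and −0.42 on the lower side, with sizes from 0.18 to 0.95. The narrowest group passed the test under each of the 7 mimics separately. It held 31 higher genes (0.155%), 28 of them without overlap, and 5 lower genes (0.0251%), all 5 without overlap. With the replicate block these counts were 61 and 13. All 7 comparisons share the 3 control values, so their agreement is not independent evidence, and a difference common to the mimics cannot be told apart from a difference of the control oligonucleotide.

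The control values weighed heavily in these counts. Leaving out control replicate 1, 2 or 3 left 813, 472 and 411 higher genes and 460, 493 and 410 lower genes. When the microRNA itself was treated as the unit, with a random block in limma, the control counted as 1 group among 8 and 2 genes passed, Acp1 and Dnajc24, both higher. By unadjusted p under 0.05 that fit had 314 higher and 148 lower of the 19938 genes. Together these are fewer than the share of 0.05 that such a threshold passes where nothing differs. The differences given below therefore hold for these 7 microRNAs, this control and this cell line, and are not shown for microRNAs at large. Acp1 and Dnajc24 are included in this limit, since that fit too had 1 control oligonucleotide.

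Acp1, the low molecular weight protein tyrosine phosphatase, stood apart from the control by a similar amount under all 7 mimics. Its control values were 9.76, 9.76 and 9.50, and the 21 mimic values ran from 10.65 through a median of 10.88 to 11.05. Every mimic array lay well above every control array, and the groups were separated by more than the spread of either. The pooled difference was 1.18 (SE 0.06, adjusted p = 1.83e-11), a 2.26-fold higher value. The 7 microRNAs gave differences from 1.1 (miR-34a and miR-1) to 1.29 (miR-22), with an SD of 0.07 among them. The F test among the 7 mimics, which does not use the control mean, gave an adjusted p of 0.236 for this gene. The untransfected myoblast array had 10.49, above all controls and below all mimic arrays, and the myotube array 10.53.

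**Figure D1:**
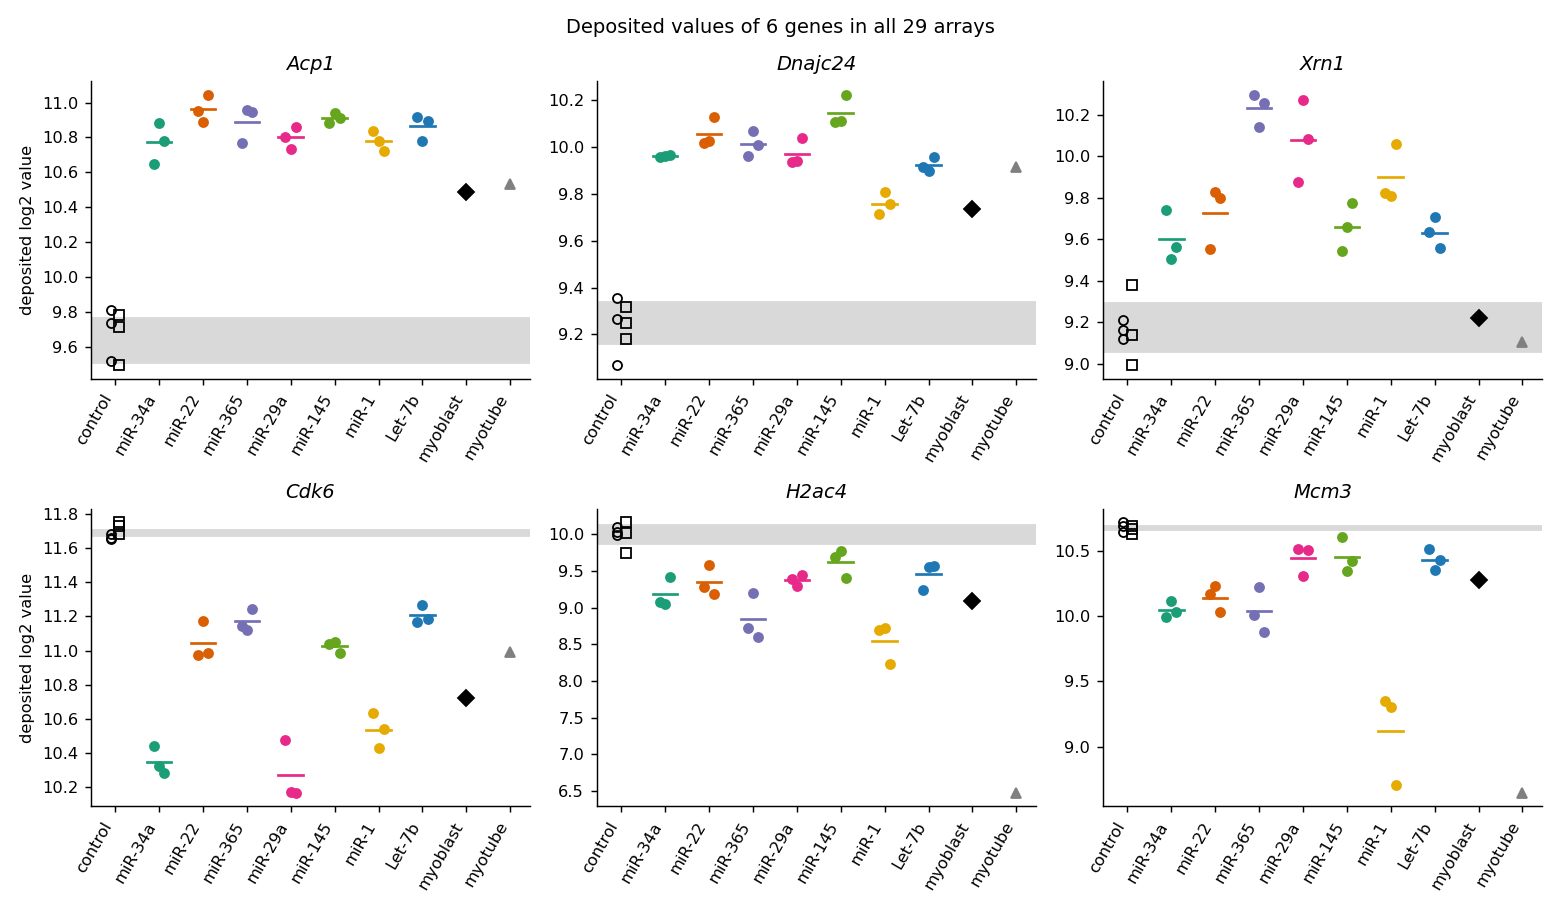
Deposited log2 values of 6 genes in all 29 arrays, with open circles for control arrays, open squares for their technical repeats, a grey band for the range of the 3 control values, coloured points for the 3 arrays of each mimic with a bar at their mean, a diamond for the myoblast array and a triangle for the myotube array. Acp1 was at a similar level under all 7 mimics, Dnajc24 was 0.52 to 0.91 above the control, Xrn1 in the myoblast array (9.22) lay inside the control band, and Cdk6, H2ac4 and Mcm3 were below the control band under every mimic to very unequal degrees.

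Dnajc24, a J-domain cochaperone of diphthamide synthesis, had control values of 9.34, 9.22 and 9.16 and mimic values from 9.71 through 9.96 to 10.22. The groups did not overlap, and the arrays of miR-1 were the lowest among the mimics. The pooled difference was 0.74 (SE 0.05, adjusted p = 2.25e-09). For this gene the microRNAs differed from each other in the F test (adjusted p = 6.27e-04), with the smallest difference, 0.52, under miR-1 and the largest, 0.91, under miR-145. The myoblast array had 9.73, inside the range of the mimic arrays.

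Prxl2a, a peroxiredoxin-like redox protein, had the largest pooled difference of all genes without overlap. Control values of 8.56, 8.27 and 8.26 stood against mimic values from 8.94 through 9.58 to 10.46. The mimic arrays scattered widely, and the 2 lowest were of miR-365. The difference was 1.20 (SE 0.16, adjusted p = 6.18e-05). The myoblast array, at 8.76, was above the controls and below all 21 mimic arrays.

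Dusp3, a dual-specificity phosphatase that acts on MAP kinases, had control values of 9.59, 9.68 and 9.44 and mimic values from 10.10 through 10.27 to 10.74. The groups were clearly apart, and the 2 highest arrays were of miR-1. Its difference was 0.77 (SE 0.07, adjusted p = 4.20e-07), and the myoblast array had 10.20, within the mimic range. Usp25, a deubiquitinase, was also even across the microRNAs, with differences from 0.46 to 0.71 and an SD of 0.08. Its control values were 10.26, 10.08 and 10.02 and its mimic values ran from 10.52 through 10.75 to 11.13, which gave 0.61 (SE 0.09, adjusted p = 1.01e-04).

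The other genes among the 12 higher ones with the largest smallest difference serve unrelated processes. Tbc1d23, which acts in transport from endosomes to the Golgi, was higher by 0.62 (SE 0.06), and Slc25a36, a mitochondrial carrier of pyrimidine nucleotides, by 0.79 (SE 0.05). Setd7, a lysine methyltransferase, was higher by 0.62 (SE 0.06), and Sgcb, the beta-sarcoglycan of the dystrophin complex, by 0.62 (SE 0.06). Zfp667, a zinc finger gene, was higher by 0.49 (SE 0.07). For these 5 genes the myoblast array was also above all controls, by 0.37 to 0.78 over the control mean. Cbr4, a carbonyl reductase of mitochondrial fatty acid synthesis, was higher by 0.51 (SE 0.06) under the mimics, whereas the myoblast array, at 8.37, was below its control values of 8.58, 8.53 and 8.62.

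**Figure D2:**
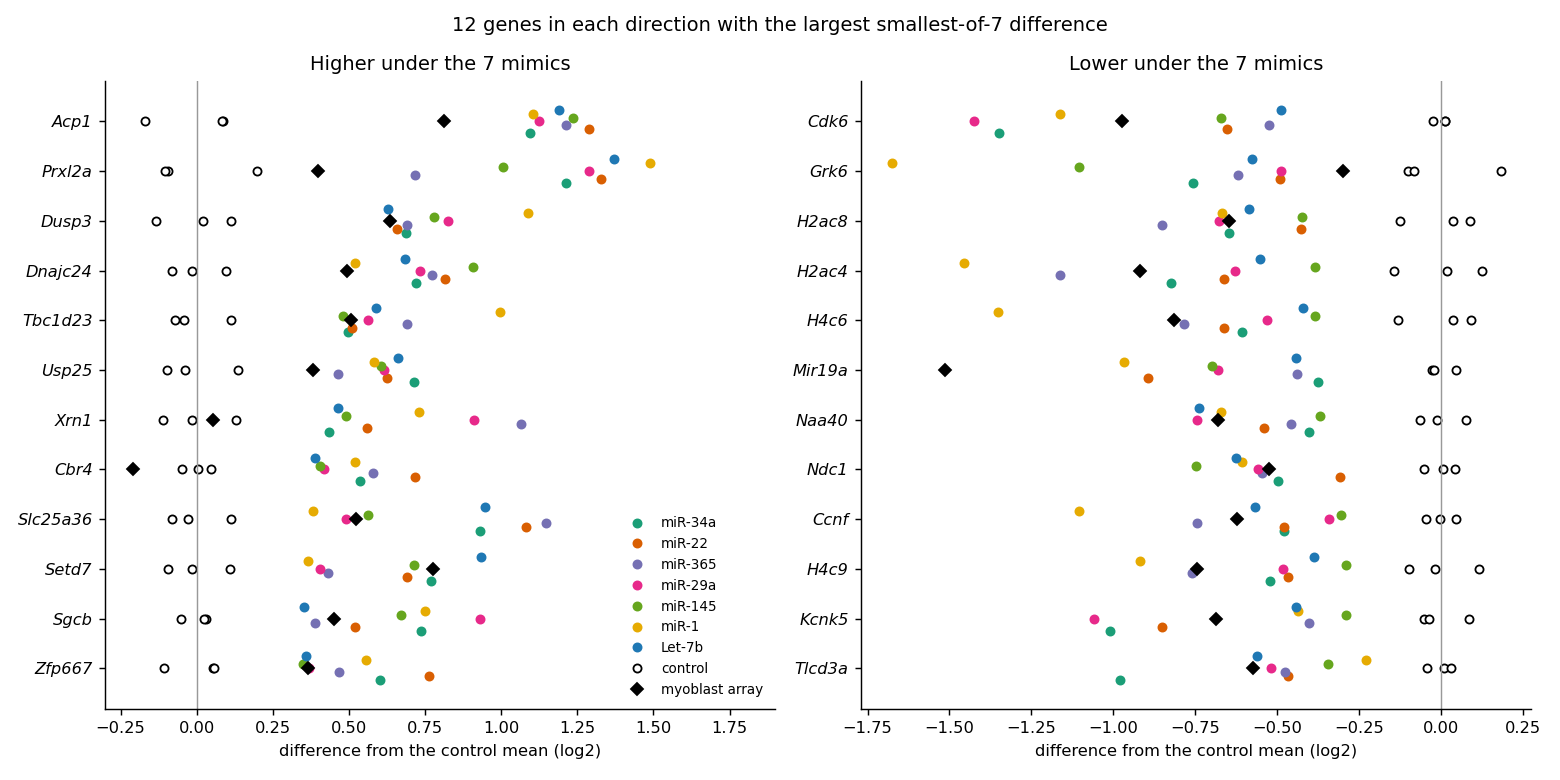
Differences from the control mean, in log2 units, of the 12 genes in each direction with the largest smallest-of-7 difference, with 1 coloured point per microRNA, open circles for the 3 control values and a diamond for the myoblast array. The 7 points of Acp1 lie between 1.1 and 1.29, and the myoblast diamond sits among the control circles for Xrn1 and beyond them on the opposite side for Cbr4.

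Genes of the microRNA pathway itself were called in both directions. Of 22 measured members of that list 3 were higher and 3 lower, where 5.43% and 4.56% of all genes were, and the median difference was −0.06 against 0.01 over all genes. Without control replicate 1 or 3 the lower count was 1. The higher members included Xrn1, the cytoplasmic exoribonuclease that degrades decapped messages, and Tnrc6a, the scaffold that links Argonaute to the deadenylases. Both were without overlap and passed under each of the 7 mimics.

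Xrn1 had control values of 9.29, 9.06 and 9.15 and mimic values from 9.50 through 9.80 to 10.30. Its highest values were under miR-365 and miR-29a, with differences of 1.06 and 0.91, and its smallest difference was 0.43 under miR-34a. The pooled difference was 0.66 (SE 0.08, adjusted p = 1.10e-05). Tnrc6a had control values of 10.17, 10.00 and 10.05 and mimic values from 10.21 through 10.64 to 11.18, a difference of 0.53 (SE 0.06, adjusted p = 1.06e-05). The myoblast array resembled the controls for both genes, with 9.22 for Xrn1, inside the control range, and 9.89 for Tnrc6a, below it.

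Among the lower members were Tarbp2, a partner of Dicer, at −0.37 (SE 0.07), and Ago1, an Argonaute, at −0.29 (SE 0.08), and both values overlapped between groups. Tarbp2 did not pass without the Let-7b mimic, nor Ago1 without the first or the third control replicate or without the miR-365 mimic. In the list of deadenylation and decay factors, 4 of 25 members were higher and 4 lower, beside the same 5.43% and 4.56% of all genes, and 2 and 2 were without the second or the third control replicate. Tob1, an adaptor of the deadenylase, was higher by 0.59 (SE 0.08, adjusted p = 5.04e-05). Dcp2, the decapping enzyme, was lower by 0.58 on this log2 scale (difference −0.58, SE 0.09, adjusted p = 2.75e-04), and Cnot9, a subunit of the deadenylase, had a difference of −0.47 (SE 0.08).

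Genes of the cell cycle were on the lower side. Cdk6, a kinase that drives cells out of G1, had the largest difference among the 5 genes that were lower under each of the mimics. Its control values were 11.67, 11.71 and 11.71, and the mimic values ran from 10.16 through 10.99 to 11.26. The control values were tightly grouped and far above every mimic array. The pooled difference was −0.90 (SE 0.06, adjusted p = 2.36e-09), a 1.86-fold lower value.

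The microRNAs were unequal for Cdk6. The 3 arrays of miR-29a had 10.48, 10.17 and 10.16 and those of miR-34a 10.44, 10.32 and 10.28, whereas the arrays of Let-7b had 11.17, 11.26 and 11.19. The difference was −1.43 for miR-29a, −1.35 for miR-34a, −1.16 for miR-1 and between −0.49 and −0.67 for the other 4, and the F test among the mimics gave an adjusted p of 6.06e-10. Cdk6 is a described target of miR-29, miR-34a and let-7. The myoblast array, at 10.72, was below all controls and inside the range of the mimic arrays.

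The other 4 genes lower under each mimic were Grk6, Naa40, Ndc1 and Tlcd3a. Grk6, a kinase of G protein-coupled receptors, had control values of 10.51, 10.23 and 10.24 and mimic values from 8.37 through 9.65 to 10.04, and the 3 lowest arrays were those of miR-1. Its difference was −0.82 (SE 0.11, adjusted p = 5.04e-05). Naa40, which acetylates the amino termini of histones H4 and H2A, had a difference of −0.56 (SE 0.08), and Ndc1, a membrane anchor of the nuclear pore, of −0.56 (SE 0.06). Tlcd3a, a membrane protein with a TLC domain, had −0.51 (SE 0.05), and −0.28 when all its probe sets were averaged.

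Genes of the histone clusters were a sizeable part of the lower side. This group was put together after values had been seen, so its count describes these arrays only. Of 28 measured genes of the histone clusters, 23 were lower and 1, H2bc4, was higher, beside 4.56% and 5.43% of all genes. Of the 65 lower genes without overlap, which are 0.326% of all genes, 12 came from this family. The median pooled difference of the 28 genes was −0.45. The mean log2 level of the 28 genes lay between 10.06 and 10.17 in the control, was below that in 21 of 21 mimic arrays, which ran from 9.19 through 9.74 to 10.02, and was 9.57 in the myoblast array. Clustered histone genes are made in S phase from many nearly identical copies, so signal may be shared between their probe sets and single members are uncertain.

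H2ac4, which encodes an H2A histone, had control values of 9.86, 10.13 and 10.02 and mimic values from 8.23 through 9.27 to 9.77. The 3 arrays of miR-1 were among the 4 lowest. The difference was −0.81 (SE 0.12, adjusted p = 1.03e-04), and the myoblast array had 9.09. H4c6, an H4 gene, had a difference of −0.68 (SE 0.11, adjusted p = 2.89e-04), and H1f5, a linker histone gene, of −0.61 (SE 0.11, adjusted p = 8.36e-04). H3c15 had the largest difference of the family, −0.99 (SE 0.17, adjusted p = 4.59e-04), but its values overlapped between the groups, with controls at 9.18, 9.47 and 9.81 and mimic values up to 9.27.

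The promoters of 3 histone genes without overlap are printed to show where a pair of promoter words, CCAAT and TATAAA, did and did not occur in this family. They are the 150 bases before the start in RefSeq's GRCm38.p6, with matches on either strand in capitals. No match falls in the stretch of H4c6.

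H2ac4 (chr13:23750938-23751087, + strand): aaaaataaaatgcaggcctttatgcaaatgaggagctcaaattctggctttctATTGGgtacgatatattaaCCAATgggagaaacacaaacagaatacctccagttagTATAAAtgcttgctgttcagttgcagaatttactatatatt
H1f5 (chr13:21780626-21780775, - strand): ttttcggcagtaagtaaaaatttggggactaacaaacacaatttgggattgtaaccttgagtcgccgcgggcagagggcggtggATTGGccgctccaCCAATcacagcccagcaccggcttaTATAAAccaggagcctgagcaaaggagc
H4c6 (chr13:23551669-23551818, - strand): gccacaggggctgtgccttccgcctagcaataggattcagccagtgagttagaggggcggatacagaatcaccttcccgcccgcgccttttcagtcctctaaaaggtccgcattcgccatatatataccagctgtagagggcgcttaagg

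In the 250 bases before the start, on either strand, CCAAT was in 81.8% of 11 promoters of these histone genes (11 of 12 genes matched) and in 34.5% of 19177 promoters of 15614 measured genes. TATAAA was in 63.6% and 10.5%. For the other 53 lower genes without overlap, 44 of which matched with 55 promoters, CCAAT was in 47.3% and TATAAA in 5.45%. For the 95 higher genes, 80 of which matched with 113 promoters, the shares were 23.9% and 7.08%. The E2F-type words TTTGGCGC or TTTCGCGC were in 9.09% of the histone promoters (1 of 11), in 0.913% of all and in 0 of the other promoters of either direction. TTTGAA was in 54.5% of the histone promoters, 18.2% of the other lower, 9.73% of the higher and 13.4% of all. Matches of different words may overlap, genes with several promoters count several times, and a match in these letters is not a bound site. The other measured histone genes were not set apart in this search. The histone shares are therefore not shown to be particular to the genes without overlap.

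Around the histones, the replication list was lower almost throughout. Of 56 measured replication and S phase genes, 47 were lower and 0 higher, against 4.56% lower and 5.43% higher among all genes. Their median difference was −0.38. The mean log2 level of the list lay between 10.26 and 10.30 in the control and ran from 9.0, in the miR-1 array of replicate 3, through 9.96 to 10.26 in the mimic arrays, where 20 of 21 were below all controls. Of the 56, 3 were without overlap, beside 0.326% of all genes on the lower side. In bulk samples fewer dividing cells and less of these messages per cell cannot be told apart. The median difference was −1.03 for miR-1 and between −0.43 and −0.45 for miR-34a, miR-22 and miR-365, but −0.15 for Let-7b, −0.12 for miR-145 and −0.11 for miR-29a. The F test among the mimics called 56 of these 56 genes, against 49.6% of all genes, so the list did not move alike.

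Mcm3, a subunit of the replicative helicase, was without overlap and passed under 4 of the 7 mimics. Its control values were 10.67, 10.69 and 10.66 and its mimic values ran from 8.71 through 10.22 to 10.60. The difference was −0.58 (SE 0.09, adjusted p = 3.07e-04), and the F test among the mimics had an adjusted p of 4.06e-08. Mcm5, another subunit of the helicase, had −0.71 (SE 0.16), Uhrf1, which maintains DNA methylation behind the fork, −0.70 (SE 0.11), and Hells, a chromatin remodeller, −0.66 (SE 0.12), and all 3 overlapped with the control. Cdca7, a partner of Hells, was without overlap at −0.67 (SE 0.09). Hat1 and Nasp, which acetylate and chaperone newly made histones, were also without overlap, at −0.48 (SE 0.07) and −0.49 (SE 0.08), and are named here after their values were seen.

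For the lists of this paragraph the shares over all genes were 4.56% lower and 5.43% higher. In the list of G2 and mitosis genes 35 of 54 were lower and 0 higher, with a median of −0.30. The F test among the mimics called 54 of these 54 genes, against 49.6% of all genes. The microRNAs were far apart, with medians of −0.93 under miR-1 and −0.42 under miR-365, but −0.06 under miR-145, −0.04 under Let-7b and −0.02 under miR-29a, and the mean level of 1 miR-29a array lay above all controls. Birc5, the survivin of the chromosomal passenger complex, had a difference of −0.55 (SE 0.12) and Cenpi, a kinetochore protein, of −0.54 (SE 0.10), and both were without overlap. The count of lower mitosis genes rested on single groups. It was 19 without the miR-1 mimic and 18, 17 and 12 without control replicates 1, 2 and 3. The count of replication genes was 41 without the miR-1 mimic and 36, 39 and 34 without these controls. Of 21 G1 cyclins, kinases and E2F factors, 14 were lower and 0 higher, with a median of −0.32. Skp2, a ubiquitin ligase subunit that removes inhibitors of the cell cycle, had −0.56 (SE 0.06) and Ccne1, cyclin E, −0.58 (SE 0.09). Without the first control replicate 8 of the 21 were lower. Of 9 CDK inhibitors and pocket proteins, which hold the cell cycle back, 1 was higher and 2 were lower, with a median of −0.03. Rb1, the retinoblastoma protein, was higher by 0.35 (SE 0.07, adjusted p = 0.00178), whereas Cdkn2c, an inhibitor of Cdk4 and Cdk6, had −0.53 (SE 0.10) and Rbl1, a relative of Rb1, −0.43 (SE 0.09). Without the miR-1 mimic the value of Rbl1 was −0.27. Of 22 Polycomb and DNA methylation genes 9 were lower and 0 higher, and 4 were lower without the first or the third control replicate. At an unadjusted p of 0.05, 0 replication, 0 mitosis, 0 G1 and 2 Polycomb genes were higher in limma. Beside these results, the mean level of the 6 differentiated muscle markers lay between 10.18 and 10.46 in the control. It was above that in 17 of 21 mimic arrays and below it in 3, with the lowest, 9.39, in the first Let-7b array. The median difference of these markers was −0.59 for Let-7b and between 0.15 and 0.68 for the other 6. The mean of the 16 markers of other cells was above its control range in 12 of 21 mimic arrays and below it in 3. The part of the muscle markers in the cell cycle results was not tested.

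**Figure D3:**
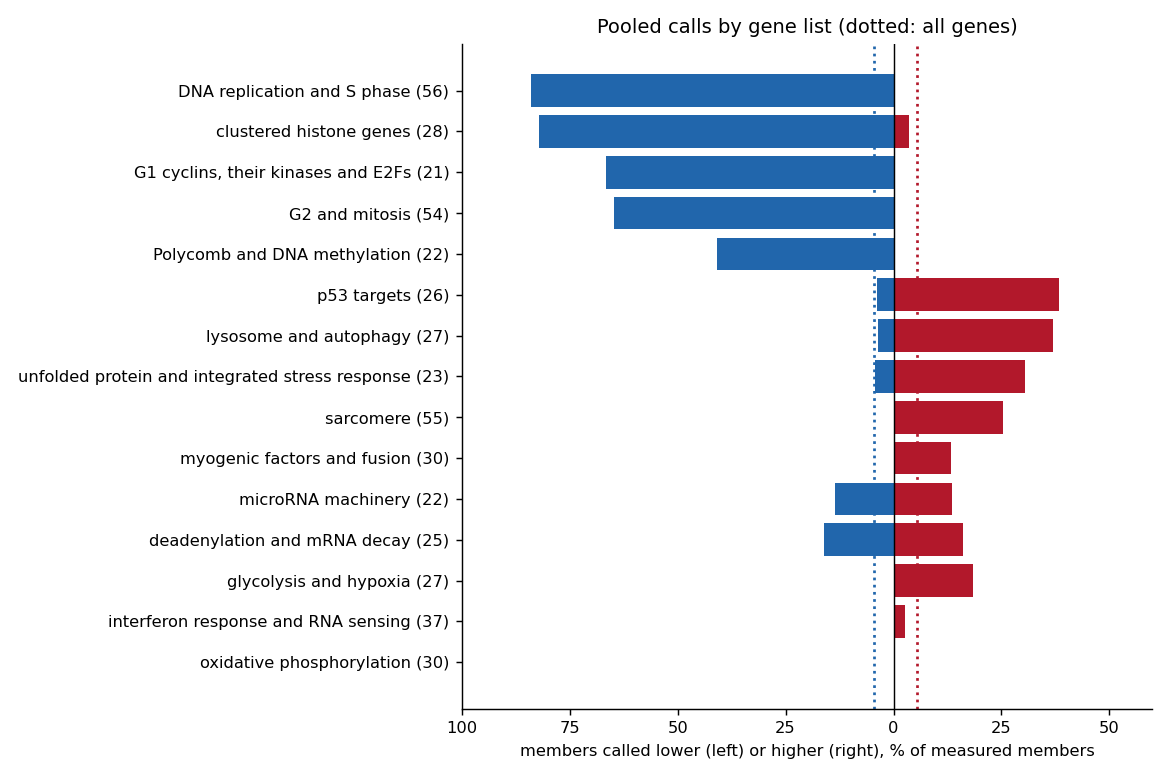
Share of the measured members of 15 gene lists called lower (left, blue) or higher (right, red) in the pooled comparison, in percent, with the number measured in brackets and dotted lines at the shares over all genes, 4.56% and 5.43%. The replication list and the histone genes have the longest bars to the left, and the lists of replication, mitosis and G1 genes have no bar to the right.

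Lists with higher members were less complete. Of 26 measured p53 targets 10 were higher and 1 lower, beside 5.43% and 4.56% of all genes, with a median of 0.23. The count of higher targets was 5 without the second and 6 without the third control replicate. Trp53inp1, a p53-induced regulator of autophagy and cell death, was the one without overlap, beside 0.476% of all genes on the higher side. Its control values were 9.70, 9.79 and 9.70 and its mimic values ran from 10.00 through 10.44 to 11.31, a difference of 0.79 (SE 0.09, adjusted p = 4.84e-06). Gadd45a, a growth arrest gene, was higher by 0.55 (SE 0.09), and Sesn2, a stress-induced inhibitor of mTORC1, by 0.45 (SE 0.10), both with overlap.

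Of 27 lysosome and autophagy genes 10 were higher and 1 lower, beside 5.43% and 4.56% of all genes, with a median of 0.16. Npc1, which exports cholesterol from the lysosome, was higher by 0.49 (SE 0.08, adjusted p = 2.27e-04), and Map1lc3b, a marker of autophagosomes, by 0.32 (SE 0.06). Ostm1, a subunit of a lysosomal chloride transporter and no member of the list, was without overlap, with controls at 10.74, 10.63 and 10.64 and mimic values from 10.88 through 11.38 to 11.99. Its difference was 0.72 (SE 0.09, adjusted p = 3.59e-05). The lysosome count was 3 without the second and 4 without the third control replicate.

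For the lists of this paragraph the shares over all genes were 5.43% higher and 4.56% lower. Of 23 genes of the unfolded protein and integrated stress responses 7 were higher and 1 lower. Without the second or the third control replicate 3 and 2 were higher. Glycolysis and hypoxia genes had 5 of 27 higher and 0 lower, with 1 higher without the second or the third control replicate. Of 30 oxidative phosphorylation genes 0 passed in either direction in limma, where 4 higher and 2 lower had an unadjusted p under 0.05. Of 37 interferon response genes 1, Irf9, passed, with a list median of 0.23. Irf9, a transcription factor of the interferon response, lost its call in 23 of 41 alternatives, which include both changes of scaling, control replicate 2 or 3 left out, and many single mimic arrays left out. The list median was 1.16 under miR-145 and between −0.13 and 0.19 under the other 6. The list's level under miR-145 differed between arrays as given above, and 6 members passed when the third miR-145 array was left out.

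Sarcomere genes had 14 of 55 higher and 0 lower, beside 5.43% and 4.56% of all genes, with a median of 0.26. The count was 22 with the replicate block, 8 without the miR-1 mimic, and 4 and 3 without the second and the third control replicate. The list did not move alike, as its median difference was 0.63 for miR-1, 0.47 for miR-34a and −0.22 for Let-7b. Neb, the nebulin of the thin filament, had controls at 9.27, 9.09 and 8.90 and mimic values from 8.94 through 9.96 to 10.86. The groups overlapped, and the difference was 0.83 (SE 0.14, adjusted p = 4.04e-04). Ttn, the titin of the sarcomere, had 0.83 (SE 0.17). In the 6 markers of differentiated muscle Ckm, the muscle creatine kinase, passed (0.49, SE 0.15, adjusted p = 0.0388), and lost its call in 10 of 41 alternatives, among them both changes of scaling, any 1 control replicate left out, and the miR-34a, miR-22 or miR-1 mimic left out. With the replicate block 4 of the 6 passed. Myog, a factor of terminal differentiation, did not pass in the fit without the block (0.54, SE 0.21, adjusted p = 0.122).

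The 160 genes without overlap were not equal under the 7 microRNAs. The F test among the mimics called 9891 genes, 49.6% of all, and among them 76 of the 95 higher and 62 of the 65 lower genes. Of the higher ones 19 did not pass that test, which does not show that the mimics acted alike on them. The SD of the 7 differences had a median of 0.18 for these 160 genes and of 0.12 for all genes. On the lower side miR-1 had the largest difference for 39 of 65 genes, with a median of −0.76, and miR-145 the smallest for 25, with a median of −0.23. Of these 65 genes, 60 passed the test under miR-1, 22 under Let-7b and 14 under miR-145, where 2096, 1089 and 597 of all 19938 genes did. Of the 95 higher genes, 87 passed under miR-1 and 51 under miR-145, where 2625 and 765 of all genes did. On the higher side the median was largest under miR-1, at 0.52, and smallest under miR-145, at 0.30. Without the miR-145 mimic 183 higher and 138 lower genes were without overlap, and 72 and 15 passed under each of the other 6.

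Wide spread was plain for several genes with large pooled values. 1700007K13Rik had differences from 0.32 under miR-145 to 2.91 under miR-365, and its pooled 0.97 (SE 0.20) became 0.65 without miR-365. Its control mean of 6.74 was near the 6.65 of probe sets with no listed gene, and it passed under 3 of the 7 mimics. Neto2, an auxiliary subunit of glutamate receptors, had −2.06 under miR-365 and −1.92 under miR-1, but −0.22 under miR-29a, with a pooled value of −0.95 (SE 0.13). Anapc15, a subunit of the ligase that ends mitosis, had −1.36 under miR-145 and between −0.23 and −0.77 under the others. Mir19a, a hairpin of the miR-17 to miR-92 cluster, had a pooled difference of −0.64 (SE 0.17, adjusted p = 0.0177), but its controls lay at 6.03 to 6.10, under the level of probe sets with no listed gene, and it did not pass without any 1 of the control replicates.

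**Figure D4:**
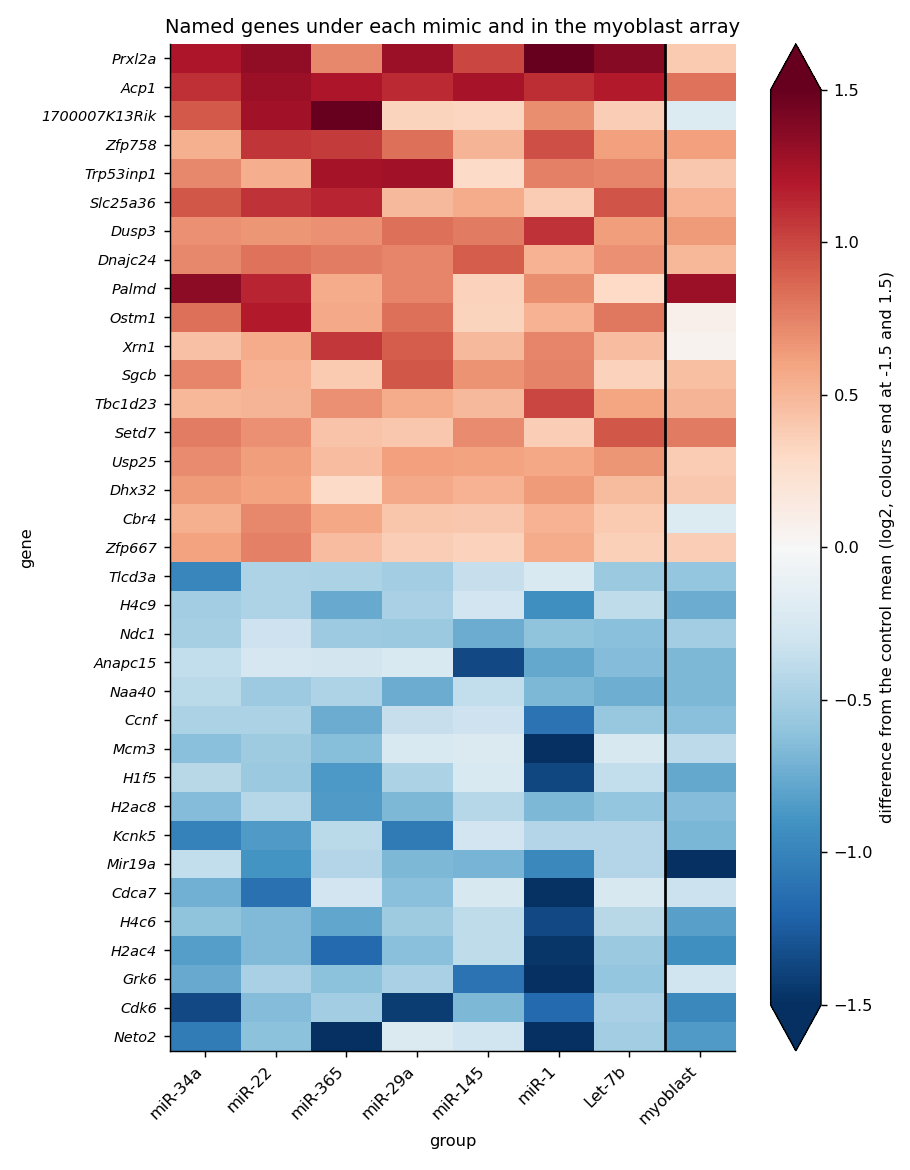
Differences from the control mean, in log2 units by colour, of the genes named by rank, under each of the 7 mimics and, right of the line, in the myoblast array. Rows such as Acp1 and Usp25 are even in colour, and rows such as 1700007K13Rik (2.91 under miR-365, beyond the end of the scale) and Mcm3 (−1.55 under miR-1) are not.

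The untransfected myoblast array was set against the same control values. Of the 65 lower genes without overlap, 64 (98.5%) were below all controls in the myoblast array as well, and 62 lay inside the range of the 21 mimic values. Inside that range lay 17192 of all 19938 genes too. Over all genes the myoblast array was beyond the controls on the side of the mimics for 45.3%, within the control range for 32.4% and beyond them on the other side for 22.3%. Of the 65, 56 (86.2%) were nearer to the mean of the mimics than to that of the control, against 55.7% of all genes. The median difference from the control was −0.42 for the mimics and −0.49 for the myoblast array. The exception was Psat1, an enzyme of serine synthesis, with controls at 12.19, 12.25 and 12.24 and 12.32 in the myoblast array. Its pooled difference of −0.39 (SE 0.08) was −0.18 without the miR-34a mimic.

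For the 95 higher genes the myoblast array was less close to the mimics. It lay above all controls for 72 (75.8%), within the control range for 8 and below all controls for 15. It was nearer to the mimics for 51 (53.7%), close to the 55.7% of all genes. It was inside the range of the 21 mimic values for 64 of 95, a smaller share than the 17192 of all 19938 genes. The median difference from the control was 0.46 for the mimics and 0.20 for the myoblast array. For 23 genes, then, the myoblast array was inside the control range or beyond it away from the mimics.

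Besides Xrn1, Tnrc6a and Cbr4 these 23 held genes that are named here after their values were seen. Asah2, a neutral ceramidase, had controls at 8.22, 8.06 and 8.13, a mimic median of 8.73 and 8.14 in the myoblast array, and its pooled difference was 0.66 (SE 0.08, adjusted p = 1.13e-05). Ccnc, cyclin C of the Mediator kinase module, had controls at 9.99, 10.06 and 10.01, a mimic median of 10.50 and 10.03 in the myoblast array. Rap2b, a small GTPase, had 8.84 in the myoblast array, below its controls of 8.99, 8.97 and 8.88, and a mimic median of 9.43. In these genes the mimic arrays were apart from both the control and the untransfected cells.

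In Palmd, which encodes palmdelphin, and Setd7 the order was another one, with the myoblast array (8.27 and 11.30) above the mimic medians of 7.75 and 11.18. Trp53inp1 and Ostm1 lay between, with 10.13 and 10.74 in the myoblast array. For Ostm1 that value exceeded the highest control value only in the fourth decimal, so the count of genes on the mimic side includes such near ties.

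**Figure D5:**
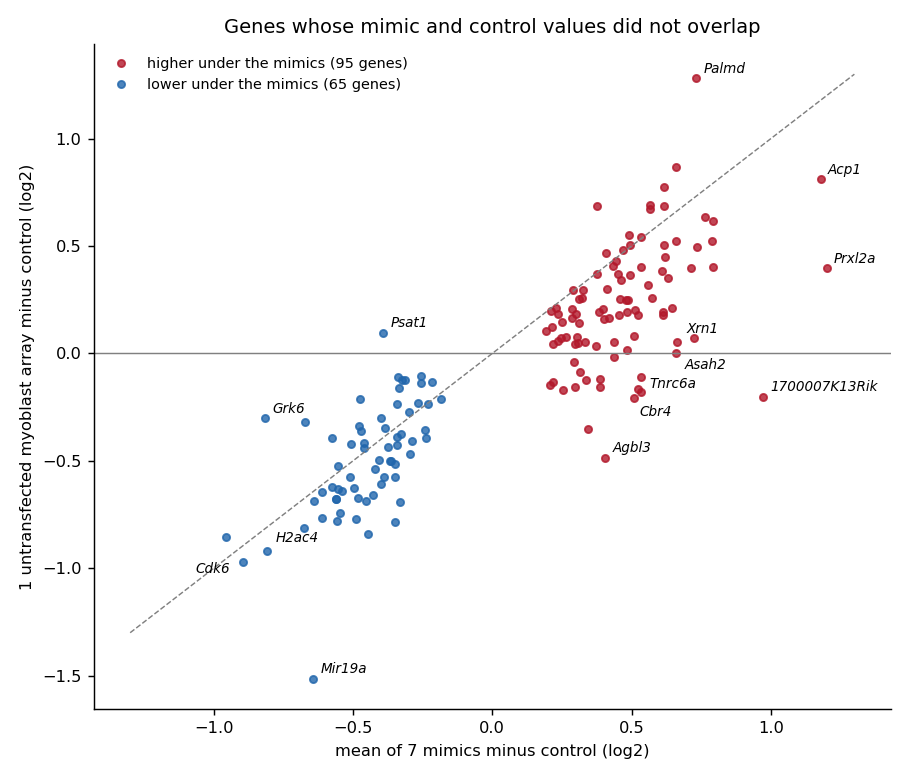
Pooled difference of the mimics from the control (horizontal) against the difference of 1 untransfected myoblast array from the same control mean (vertical), both in log2 units, for the 95 higher and 65 lower genes without overlap, with a dashed line of equal values. Both axes subtract the same control values. Of the lower genes 64 of 65 lie below 0 on the vertical axis, at varying distance from the dashed line (Grk6 at −0.30 against −0.82, Mir19a at −1.51 against −0.64), and 23 higher genes sit within the range of the control values or below it, Xrn1 and Cbr4 among them.

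These positions have limits that the design sets. The control values helped to choose the 160 genes and the myoblast value did not, and the chosen genes had a narrower control range (median 0.12 for higher and 0.07 for lower genes, 0.15 for all) and a higher control level (9.03 and 10.35, against 7.80). The myoblast array was single and had not been transfected, and it also differed from the control in genes of differentiation. Its mean log2 level of the 6 differentiated muscle markers was 11.91, against 10.18 to 10.46 in the control and 9.39 to 11.24 in the mimic arrays, and its median difference was 1.76 for sarcomere genes, −0.44 for replication genes and −0.45 for mitosis genes. The part of this difference in the positions of the lower genes was not tested. In the myotube array, 65 of 65 lower and 86 of 95 higher genes lay on the mimic side of the control mean. So did 12964 of all 19938 genes, and both differences subtract the same control mean.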

How the data were processed

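Biotin-labelled RNA of 29 arrays had been summarised by the authors with RMA in Affymetrix Expression Console 1.1, per the submitters' processing notes, which corrects background, equalises quantiles and gives log2 values. The deposited log2 values (2.35 to 14.65) were used unchanged, and the genome build is not given in the sources used here. Of 35556 probe sets 21789 carried 1 symbol, 1621 several and 12146 none. The brightest probe set of each symbol gave 19938 genes.

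Each control was averaged with its technical repeat, which left 24 values in 8 groups for limma 3.58.1 (R 4.3.3) with a variance trend. Adjusted p values are Benjamini-Hochberg values from limma. The genes compared, the gene lists and the rules for named genes were chosen with earlier results of these data known. Named are the 12 genes per direction with the largest smallest-of-7 difference among genes called under each mimic without overlap (filled from the pooled calls), the 5 with the largest pooled difference, the 5 of at least 0.5 with the smallest SD over the mimics, up to 4 called members of each list and the cell type markers.

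Replicate numbers pair the samples, since residuals of the control and of the mean of the mimics correlated at 0.626, 0.413 and 0.306 for numbers 1, 2 and 3. The SE, p values and counts given are nevertheless from fits without this pairing, unless the replicate block is named. The fit was tested on simulated data with the layout of this comparison over 19938 genes. It recovered 48.5% of planted changes of 0.25, 90.9% of 0.5 and 100% of 1, and called 10 of 19538 unchanged genes. In the simulated data 200 genes differed under 1 mimic, whereas the F test among the mimics called 9891 genes of the real data. These rates therefore describe the simulated data only and are not shown for the real comparison. The number of arrays limits the precision. Alternatives tried were scaling, a filter on dim genes, handling of the repeats, the variance model, averaged probe sets, blocks, and leaving out arrays or mimics.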

Additional observations from a re-analysis of the deposited data

Results flagged for a closer look

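Each of the 35 genes named by rank was examined over the 6 single control arrays for 1 array far from the other 5, by the gap rule for outliers at its 95% critical value, which chance exceeds in about 1 of 20 groups. For Sgcb the first array of control replicate 3 was at 10.379, while the other 5 control arrays lay between 10.497 and 10.559. For H2ac8 the technical repeat of control replicate 3 was at 6.4236, while the others lay between 6.653 and 6.787. Both genes passed the pooled test in the fit without the technical repeats and in the fit on the repeats alone.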

How the results depend on the processing

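No direction of a named gene with a pooled call was reversed in any alternative. Of 35 genes named by rank, 34 passed every alternative other than the random block by microRNA, the exception being Mir19a, and of all 127 named genes with a pooled call 71 did. With the microRNA as a random block, 2 genes were higher and 0 lower. Without the technical repeats, 1227 were higher and 957 lower. With the replicate block, 1738 were higher and 1395 lower, and 61 and 13 passed under each mimic. After subtraction of array medians, 60 higher and 118 lower genes were without overlap, and the myoblast array was on the mimic side for 45 and 114 of them. The higher share was 54.4% of pooled calls, 59.4% of genes without overlap and 86.1% of genes passing under each mimic, 42.5%, 33.7% and 75.9% after median subtraction, and 49.6%, 54.5% and 77.8% after repeated quantile normalization, when 8 genes were lower under each mimic. Fitted with the control alone, 18 were higher under each mimic.

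Leaving out 1 value at a time gave 411 to 1189 higher and 410 to 954 lower genes, 95 to 229 and 65 to 107 without overlap, and 17 to 34 and 3 to 8 under each mimic. The lowest pooled counts came without control replicates 2 (472 and 493) and 3 (411 and 410), and without control replicate 1 there were 460 lower genes and 229 and 107 without overlap. Under each mimic, 18 and 17 were higher without control replicates 2 and 3, while 3 were lower without control replicate 1 or 3, the third miR-29a or the third Let-7b array, and 8 without the third miR-1 array. Without a whole mimic, the genes without overlap were 183 and 138 (miR-145), 148 and 100 (Let-7b) and 113 lower (miR-29a). Genes passing under each remaining mimic were 72 and 15 without miR-145, and lower genes were 8, 10, 9 and 8 without miR-365, miR-29a, miR-1 and Let-7b. The cause of these shifts was not tested, except that a fit with fewer mimics or controls asks less of a gene without overlap. Signal near the background level limits 6 higher genes and 1 lower gene without overlap, whose control mean lay under the median of probe sets with no listed gene.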
